A study of Mus musculus with 4 samples.

Results

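The normoxic lung was described from the 2 libraries that carry the label Normoxic among the 4 libraries of the series, across 43008 autosomal genes. The series compared lungs of mice kept in normal air with lungs of mice under Sugen and hypoxia, and its design text also names a KCNK3 mutation arm, which was not analysed here. Both normoxic libraries were poly(A) RNA from animals of strain BL/6 with the genotype Control (Rosa), and neither an age nor the meaning of that genotype name beyond control was given. Going by the sex entries of the labels, replicate 1 was a pool of 3 females and replicate 2 a pool of 1 female and 2 males, so each value below is an average over a pool. With 1 condition and 2 pools there is no contrast to test, and every value is given as a description, as mean ± SD over the 2 libraries (n = 2). The SD covers the spread between pools of unlike sex composition, not the spread between single animals.

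The lung exchanges gas across an alveolar wall made of thin alveolar type 1 cells, a dense capillary bed and a sparse mesenchyme. Alveolar type 2 cells secrete surfactant, a film of lipid and protein that lowers surface tension, while club and ciliated cells line the conducting airways and resident macrophages clear the airspace. Bulk RNA averages over all of these cells, so fewer cells of a type and less RNA per cell cannot be told apart, and a share of reads is not a share of cells.

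Levels are given on 2 scales. CPM is a gene's count scaled to a library total of 1e+06 gene counts, so that it is a share of reads and shows where the reads went. RPKM divides CPM by the kilobases of merged exon of the gene and is the scale used here whenever 1 gene is set beside another. A gene was counted as detected at 1 CPM or more in both libraries. Gene counts summed to 67.1 M in replicate 1 and 58.2 M in replicate 2, so that 1 CPM stood for 67.1 and 58.2 reads, and a count of 0 allows a level of up to 0.0447 and 0.0515 CPM (3 reads, counting error only). Of 14213 detected autosomal genes, 13068 (91.9%) had values within 1.25-fold of each other in the 2 libraries, and 53 were over 2-fold apart.

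The tissue label was checked first, because the source entry reads lung while the extraction text speaks of kidneys. Sftpc, the surfactant protein made by alveolar type 2 cells, was at 11770 and 11590 CPM in replicates 1 and 2. Scgb1a1, the secretoglobin of club cells, was at 13870 and 13650 CPM. Ager, the receptor for advanced glycation end products and a marker of alveolar type 1 cells, was at 1766 and 1846 CPM. Pecam1, the endothelial adhesion molecule CD31, was at 820.9 and 850.3 CPM. All 4 markers were therefore among the 100 most read autosomal genes, at ranks 2, 1, 24 and 84 by mean CPM. Pecam1 marks endothelium, which is not particular to the lung, so the check rests on Sftpc, Scgb1a1 and Ager. Of 8 kidney markers, 0 were detected, the highest was Aqp2, the collecting duct water channel, at 0.225 CPM, and Umod, the main protein of the thick ascending limb, had no read in either library. The markers thus went with the source entry.

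The 4 marker genes lie on different chromosomes of GRCm38. Scgb1a1 spans chr19:9083636-9087958 on the minus strand, Sftpc chr14:70520949-70524081 on the minus strand, Ager chr17:34597862-34600936 on the plus strand, and Pecam1 chr11:106654217-106750628 on the minus strand. RefSeq promoter windows of GRCm38.p6 were looked up for the most abundant genes, and those with 1 window each are shown for a surfactant gene, an alveolar type 1 gene, a macrophage and type 2 gene, a mesenchymal gene and a housekeeping gene. Scgb1a1, Sftpc and Pecam1 had no window in the table. The 150 bases before the annotated start are printed 5′ to 3′, with every CG dinucleotide and every TATAAA (on either strand) in capitals. They are chr14:41131638-41131787 on the plus strand for Sftpa1, chr17:34597700-34597849 on the plus strand for Ager, chr10:117282273-117282422 on the minus strand for Lyz2, chr6:55174991-55175140 on the minus strand for Inmt and chr9:78481725-78481874 on the minus strand for Eef1a1.
Sftpa1: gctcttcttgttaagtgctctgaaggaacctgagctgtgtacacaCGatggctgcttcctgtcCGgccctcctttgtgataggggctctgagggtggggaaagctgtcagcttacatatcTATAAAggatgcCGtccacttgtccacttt
Ager: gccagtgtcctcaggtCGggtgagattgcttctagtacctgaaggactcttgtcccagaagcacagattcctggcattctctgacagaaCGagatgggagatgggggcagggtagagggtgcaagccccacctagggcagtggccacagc
Lyz2: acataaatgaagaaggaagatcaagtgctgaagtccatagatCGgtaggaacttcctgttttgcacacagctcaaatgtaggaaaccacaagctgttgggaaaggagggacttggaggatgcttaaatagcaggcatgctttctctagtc
Inmt: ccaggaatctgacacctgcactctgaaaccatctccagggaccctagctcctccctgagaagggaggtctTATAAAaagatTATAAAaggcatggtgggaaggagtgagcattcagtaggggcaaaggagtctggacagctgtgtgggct
Eef1a1: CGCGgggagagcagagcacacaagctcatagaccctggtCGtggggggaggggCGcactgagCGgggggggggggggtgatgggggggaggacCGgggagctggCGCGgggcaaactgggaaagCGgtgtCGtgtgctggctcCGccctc
The stretch before Sftpa1, which encodes surfactant protein A, held TATAAA once, its first base 30 bases before the start. That before Inmt, an indolethylamine methyltransferase, held it at 80 and 69 bases before the start and held no CG. The stretches of Ager and of Lyz2, a lysozyme of macrophages and type 2 cells, held no TATAAA, with 2 and 1 CG. The stretch of Eef1a1, the translation elongation factor, held 11 CG and no TATAAA.

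Over whole windows of 300 bases (250 before the start to 50 after it), TATAAA on either strand was found in 4276 of 31396 autosomal windows (13.6%). A window in which matches on both strands overlap was counted once. The share was 7.53% in windows of detected protein-coding genes and 22.6% in those of protein-coding genes that were not detected. In windows of the 25 protein-coding genes with the highest RPKM it was 8 of 20 (40%), in those of the 100 highest 24 of 91 (26.4%), and in those of cytosolic ribosomal proteins 5 of 73 (6.85%). The median number of CG per window was 20 for detected and 3 for undetected protein-coding genes, 10.5 for the 25 highest, 22.0 for ribosomal proteins, 21 for the 20 highest transcription factors of a chosen list, and 3.0 for immune marker genes. A detected gene thus usually had a CG-rich window, while windows of the most abundant lung genes were of both kinds. Windows of 1 gene can overlap, 17 of the 25 highest genes had a window, and a match to these letters is no evidence of a site.

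Reads were spread over many genes (the plot of cumulative counts). Of 20478 autosomal protein-coding genes 13285 (64.9%) were detected, and 4113 had no read in either library. The 10 most read genes held 6.43% and 6.02% of autosomal counts in replicates 1 and 2, and the 100 most read 18.2% and 17.7%. It took 1158 genes to reach 50% of the autosomal counts and 6338 to reach 90%. At 10000 CPM or more in both libraries there were 2 genes, at 1000 CPM or more 58, at 100 CPM or more 2242 and at 10 CPM or more 10082. The order was shared by the pools, with 24 genes common to the 25 most read of each and 97 common to the 100 most read.

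**Figure D1:**
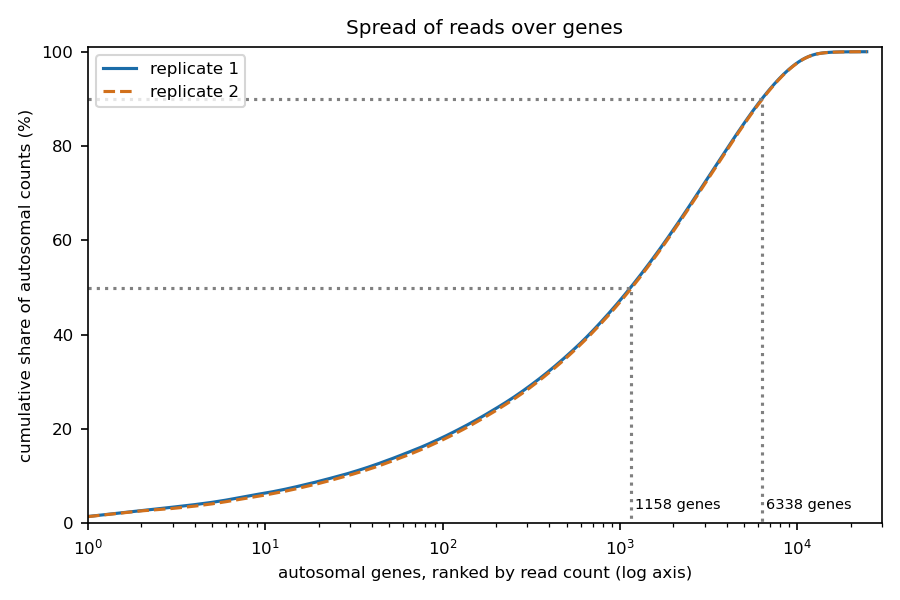
Cumulative share of autosomal counts (%) against autosomal genes ranked by read count (log axis), 1 line for each normoxic library, with dotted lines at 50% and 90%. The 2 lines lie on each other, and the dotted lines meet them at 1158 and 6338 genes.

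Per kilobase of exon, the top of the protein-coding ranking was held by secreted products of the epithelium (the plot of the 25 highest genes). Scgb1a1 was at 29130 and 28670 RPKM (28900 ± 327) and Sftpc at 11390 and 11200 RPKM (11300 ± 129). Lyz2 followed at 3929 and 3750 RPKM, and Sftpb, the surfactant protein needed for the film to form, at 2320 and 2368 RPKM. Cbr2, a carbonyl reductase of club cells, was at 1851 and 1870 RPKM, and Gsn, the actin-severing protein gelsolin, at 1424 and 1437 RPKM. The ranges of these 6 genes did not overlap, so their order held in both libraries. The next 4 genes were Sftpa1 (1273 ± 117 RPKM), Eef1a1 (1263 ± 57.6 RPKM), B2m, the light chain of MHC class I (1257 ± 90.5 RPKM), and Inmt (1197 ± 6.13 RPKM). Neighbours among them could not be ordered, because their ranges overlapped, while the range of Eef1a1 lay above that of Inmt.

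Cyp2f2, a cytochrome P450 of club cells, came next at 1030 ± 10.6 RPKM, with Actb, the cytoplasmic actin, at 1007 ± 35.6 RPKM. Cd74, the invariant chain of MHC class II, was at 928.4 ± 25.9 RPKM and Ager at 843.5 ± 26.5 RPKM. Gpx3, an extracellular glutathione peroxidase, was at 801.4 ± 1.65 RPKM, and Epas1, the oxygen-regulated transcription factor HIF-2 alpha, at 765.1 ± 24.3 RPKM. Cxcl15, a chemokine of the lung epithelium, was at 747.9 ± 9.92 RPKM, and Mgp, an inhibitor of calcification, at 740.1 ± 47.1 RPKM. The remaining members of the 25 were Rplp1 and Rps15, which encode ribosomal proteins, Eef2, which encodes the elongation factor of translocation, Fth1 and Ftl1, the ferritin chains, H2-D1, an MHC class I heavy chain, and Scd1, the desaturase of fatty acid synthesis, between 497.1 and 796.1 RPKM. In all, 13 of the 24 neighbouring pairs had ranges that did not overlap. Among the 100 highest protein-coding genes by RPKM, 22 were members of the marker lists used here and 12 encoded cytosolic ribosomal proteins.

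**Figure D2:**
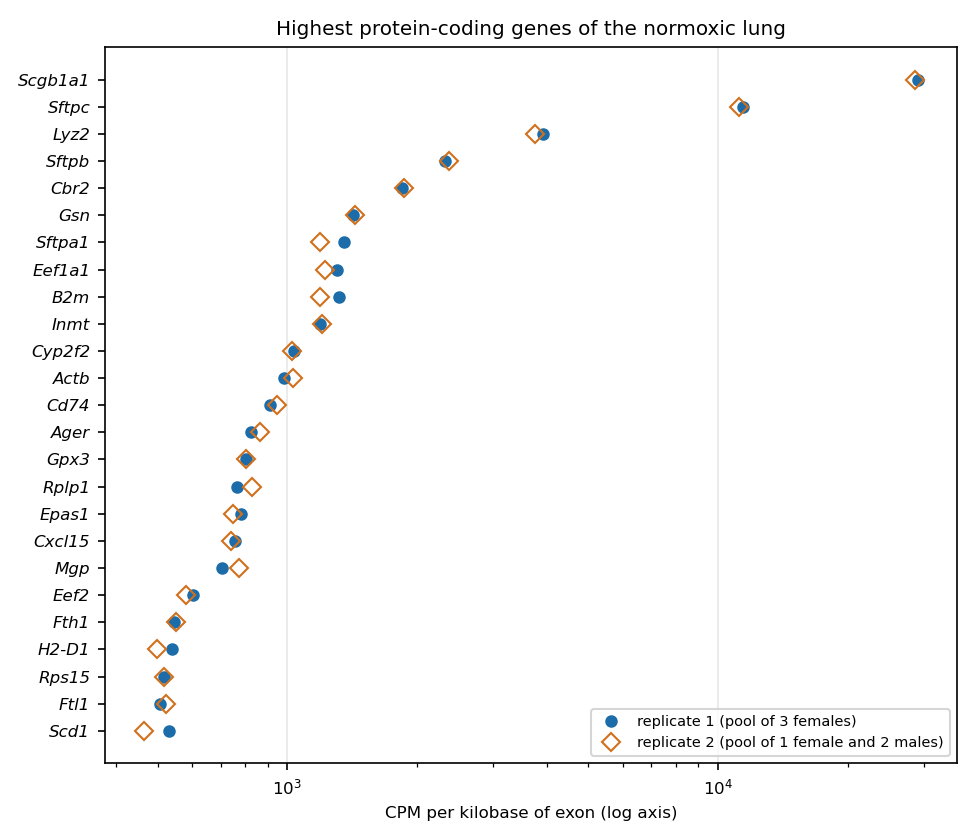
CPM per kilobase of exon (log axis) of the 25 protein-coding autosomal genes with the highest mean, with a filled circle for replicate 1 and an open diamond for replicate 2. Scgb1a1 and Sftpc stand at 28900 and 11300 on average, above Lyz2 at 3839, and the symbols of the libraries nearly coincide for most genes.

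Long transcripts took a large share of reads without being high per kilobase, and 16 genes were common to the 25 highest by CPM and the 25 highest by RPKM. Sptbn1, which encodes a spectrin of the membrane skeleton, was at 2801 ± 81.3 CPM, rank 10, yet at 160.1 RPKM, rank 168. Tns1, the focal adhesion protein tensin, was at 2608 ± 60.2 CPM, rank 12, and at 162.9 RPKM, rank 165. The merged exons of Sptbn1 and Tns1 span 17492 and 16010 bases, but their longest transcripts 9107 and 9966. With the longest transcript as gene length, the RPKM of both rose by over 1.5-fold. Ahnak, a giant scaffold protein, was at 2360 ± 50.4 CPM, rank 16, and at 118.4 RPKM, rank 253. Slc34a2, the phosphate transporter of type 2 cells (484.9 RPKM, rank 30), Ace, the angiotensin-converting enzyme of capillary endothelium (350.0 RPKM, rank 46), C3, the central complement component (315.8 RPKM, rank 62), and Adgrf5, an adhesion receptor of the alveolar wall (223.8 RPKM, rank 105), were also among the 25 highest by CPM only.

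By gene class, autosomes held 95.1 ± 0.063% of gene counts, the mitochondrial genome 2.07 ± 0.046% and the X chromosome 2.72 ± 0.027%. Autosomal protein-coding genes held 93.4 ± 0.25% and long non-coding genes 1.44 ± 0.14%. Pseudogenes held 0.134%, immunoglobulin segments 0.155% and 0.110% in replicates 1 and 2, T cell receptor segments 0.00377%, and small RNA genes, which poly(A) selection disfavours, 0.0452% and 0.0312%.

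A single non-coding gene, Gm42418, was at 7033 and 4431 CPM, and its libraries lay further apart than those of any other gene among the 25 most read. It spans chr17:39846958-39848788 on the plus strand and lies inside the annotated ribosomal RNA gene CT010467.1 of the minus strand. Without it, long non-coding genes held 0.871 ± 0.039% of counts. Malat1, an abundant nuclear RNA, was at 2209 and 2464 CPM, and Neat1, the RNA scaffold of paraspeckles, at 820.2 and 887.8 CPM. The next were 1700020I14Rik at 255.2 ± 0.922 CPM, Gm23935 at 253.4 and 138.6 CPM, Gm43085 at 191.9 ± 26.0 CPM and Peg13, an imprinted transcript, at 190.3 ± 22.1 CPM. AU020206 (167.7 ± 11.1 CPM), Gm44250 (137.1 ± 1.39 CPM) and Fendrr, the transcript beside the Foxf1 gene (127.8 ± 17.4 CPM), completed the 10 highest. Gm43085 starts at base 90803261 of chromosome 5 and Cxcl15 ends at base 90803067 on the same strand, so reads of a longer Cxcl15 transcript and its own cannot be told apart. Gm23935 is annotated as a 57-base gene, and its 3439 RPKM, rank 4 among all genes, rests on that length.

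Chromosomes did not share reads in proportion to their genes. Chromosome 11 held 9.24% of autosomal counts with 7.97% of the protein-coding genes, and 70.5% of those genes were detected. Chromosome 7 held 6.78% of counts with 9.66% of genes, of which 53.7% were detected, and 376 of its protein-coding genes were olfactory or vomeronasal receptors, which serve smell. Chromosome 12, which had 0 such receptors, showed the highest share of detected genes at 73.2%. Chromosome 19 held 5.45% of counts with 3.46% of genes, and 4.0% without Scgb1a1. Chromosome 14, with 41 olfactory or vomeronasal receptors, had the lowest share of detected genes at 53.0%. It held 4.67% of counts, and 3.44% without Sftpc.

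The cell types of the lung were read from 40 marker lists with 290 measured members, and the lists were set beside each other by their median RPKM (the plot of marker lists). The median over all autosomal protein-coding genes was 2.37 RPKM, and over those detected 6.37 RPKM. Of the 40 lists, alveolar type 2 stood highest at a median of 302 and 287 RPKM, followed by alveolar type 1 at 117 and 119 RPKM. The general endothelial list (80.4 and 80.4 RPKM) and the general capillary list (71.7 and 86.8 RPKM) came next and overlapped each other. Summed over their lists, airspace epithelium held 3.41 ± 0.051% of gene counts, airway epithelium 1.94 ± 0.022%, vessels 1.32 ± 0.018%, mesenchyme 0.660 ± 0.018%, immune cells 0.269 ± 0.0012% and blood cells 0.0462 ± 0.0052%. These sums depend on how many and which markers a list holds, and 1 gene can carry them: without Scgb1a1 the airway sum was 0.566%, below that of the vessels.

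**Figure D3:**
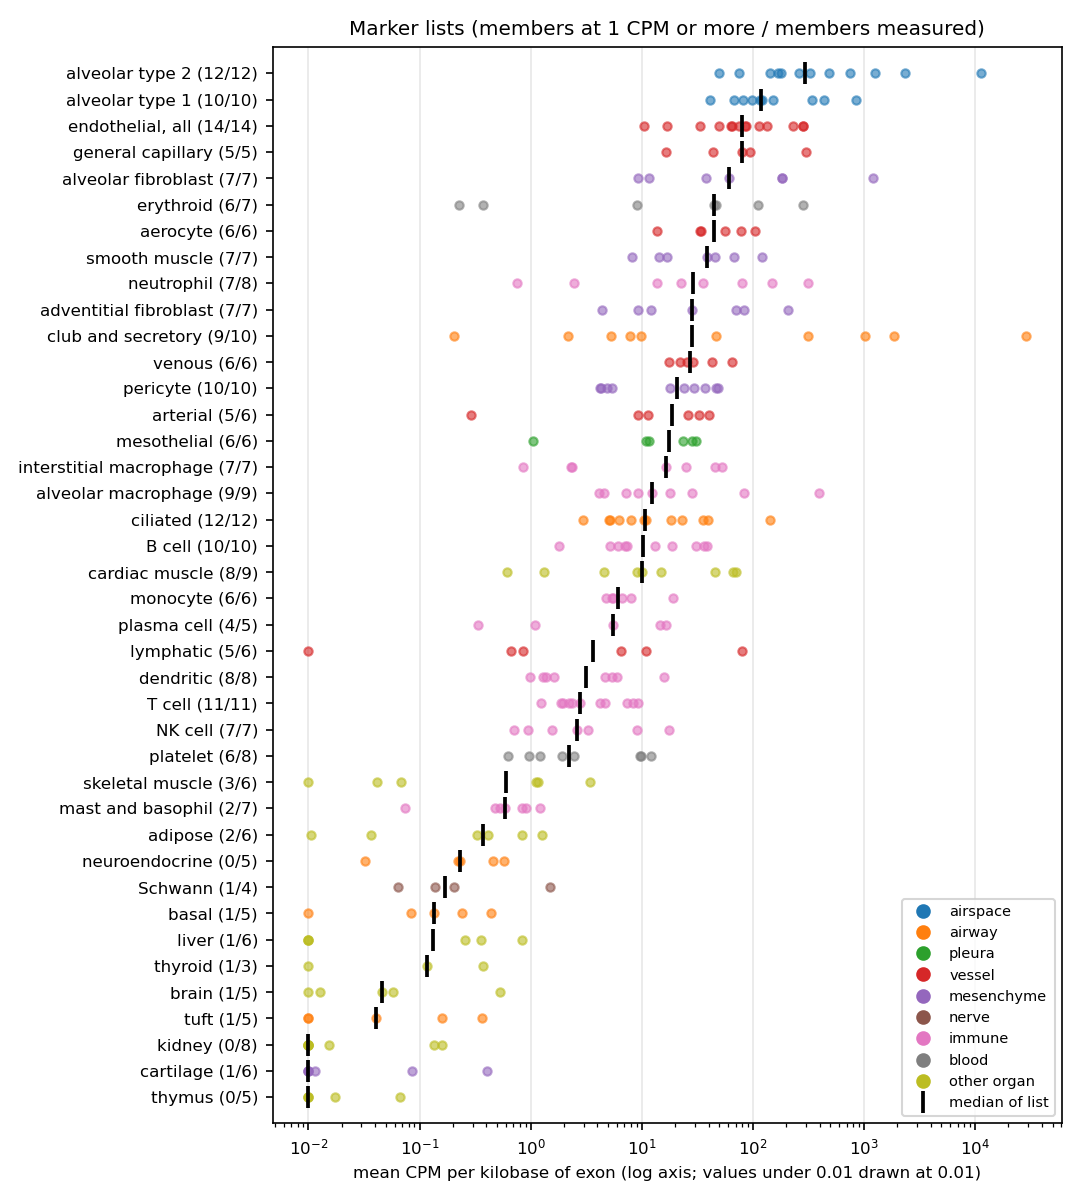
Mean CPM per kilobase of exon (log axis) of each member of 40 marker lists, 1 row for each list ordered by its median (black tick), with colours for compartments and the numbers of detected and measured members in brackets. Alveolar type 2 and type 1 lists lie highest with medians of 294 and 118, and lists of kidney and thymus have no detected member.

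All 12 alveolar type 2 genes were detected. After Sftpc, Sftpb, Sftpa1 and Cxcl15, the list ran from Slc34a2 at 502.9 and 466.9 RPKM to Etv5, a transcription factor of these cells, at 50.6 and 48.3 RPKM. Sftpd, the surfactant protein of innate defence, was at 344.4 and 311.1 RPKM. Abca3, which pumps surfactant lipid into lamellar bodies, was at 75.0 and 75.2 RPKM. The 4 surfactant proteins were far from equal: Sftpc held 74.1% of the family sum of RPKM, Sftpb 15.4% and Sftpa1 8.35%. Of 5 lysozyme genes, Lyz2 held 95.8% and Lyz1, the form typical of the gut that type 2 cells also make, 4.22%.

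All 10 alveolar type 1 genes were detected as well, led by Ager at 824.7 and 862.2 RPKM. Hopx, a homeodomain protein that does not itself bind DNA, was at 442.2 and 437.3 RPKM, Gprc5a, an orphan receptor, at 326.3 and 351.8 RPKM, and Clic5, a chloride channel protein of the cell cortex, at 151.0 and 155.4 RPKM. The ranges of these 4 genes did not overlap. Reads from the Hopx locus depended on strand: with counts that ignore strand, where reads over genes of both strands are left out as ambiguous, the Hopx level was 264.7 in place of 439.8 RPKM. The lowest of the list was Rtkn2 at 41.3 ± 1.26 RPKM, still above the median of detected genes.

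The airway lists were uneven. Club cell genes went from Scgb1a1, Cbr2 and Cyp2f2 down to Scgb3a2, a further secretoglobin, at 320.9 and 311.7 RPKM. Some of the remaining club and secretory genes had libraries far apart: Scgb3a1 was at 59.7 and 33.3 RPKM, Bpifb1, a secreted defence protein of upper airways, at 14.9 and 4.88 RPKM, and Reg3g, an antibacterial lectin, at 3.33 and 0.975 RPKM. Of 34 secretoglobin genes 4 were detected, the other 30, many of them close copies of each other, had no read, and Scgb1a1 held 98.7% of the family sum. Muc1, a membrane mucin, held 88.4% of the sum over 12 mucin genes, and Muc5b, the gel-forming mucin of the list, was at 5.72 and 4.86 RPKM.

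All 12 ciliated cell genes were detected, with a list median of 11 and 10.4 RPKM. Tppp3, a tubulin-binding protein, was at 136.8 and 146.5 RPKM, Foxj1, the master regulator of motile cilia, at 41.9 and 37.2 RPKM, and Dynlrb2, a dynein light chain, at 36.1 and 35 RPKM. The giant axonemal genes Dnah5 and Hydin were low per kilobase, at 5.22 and 2.98 RPKM. Rare airway cells were at the limit of these data. Of 5 basal cell genes 1 was detected, Ngfr at 0.536 and 0.339 RPKM, and Krt5, the keratin that defines these cells, had no read. Of 5 neuroendocrine genes 0 were detected, the highest being Calca, which encodes the peptide CGRP, at 0.380 and 0.765 RPKM. Of 5 tuft cell genes 1 was detected, Avil at 0.381 and 0.354 RPKM, while Il25 and Gnat3 had no read. Values this low do not show that the cells were absent.

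All 14 general endothelial genes were detected. Calcrl, the receptor of adrenomedullin and CGRP, was at 284.6 and 276.8 RPKM, and Cdh5, the cadherin of endothelial junctions, at 276.6 and 284.7 RPKM, so that these genes could not be ordered. Cldn5, the claudin of endothelial tight junctions, was at 230.3 and 233.4 RPKM, and Pecam1 at 131.8 and 136.5 RPKM, rank 214 among all autosomal genes. Among capillary genes, Plvap, which forms the diaphragms of fenestrae and caveolae, was at 322.4 and 282.2 RPKM, and Cd93, a C-type lectin receptor, at 97.0 and 93.0 RPKM. Genes of the aerocyte, the large capillary cell that faces the alveolus, were led by the transcription factor Tbx2 at 104.5 and 104.7 RPKM and the carbonic anhydrase Car4 at 79.7 and 77.4 RPKM. Both genes are also expressed outside these cells, Tbx2 in mesenchyme.

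Venous, arterial and lymphatic genes were lower than capillary genes by list median, at 28.0 and 26.8 RPKM for venous, 18.8 and 18.6 RPKM for arterial and 3.72 and 3.63 RPKM for lymphatic genes. These 3 ranges did not overlap. Vwf, the platelet-binding factor stored by endothelium, was at 68.1 and 60.9 RPKM, and Efnb2, the ephrin ligand of arteries, at 42.0 and 38.0 RPKM. Lyve1, the hyaluronan receptor that macrophages share with lymphatics, was at 85.5 and 73.4 RPKM, whereas Prox1, the lymphatic master regulator, was at 0.701 and 0.639 RPKM. Ccl21a had no read, and since it has near-identical copies and reads that map to several places were not counted, its level is uncertain.

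Mesenchyme was led by genes of the alveolar fibroblast. Inmt was at 1193 and 1202 RPKM, Ces1d, a carboxylesterase, at 184.0 and 184.4 RPKM, and Npnt, the nephronectin of the alveolar basement membrane, at 177.2 and 189.2 RPKM. Itga8, the integrin chain that binds nephronectin, was at 59.9 and 62.6 RPKM. In the adventitial fibroblast list Igfbp6 stood at 212.1 and 206.6 RPKM and Dpt, dermatopontin, at 72.1 and 94.3 RPKM. Acta2, the actin of smooth muscle, was at 108.4 and 131.4 RPKM, and Tagln, transgelin, at 64.0 and 71.1 RPKM. Among pericyte genes Cox4i2, a lung isoform of cytochrome oxidase, was at 46.1 and 51.6 RPKM and Pdgfrb, the receptor that recruits these cells, at 46.6 and 47.3 RPKM, with overlapping ranges. Cartilage genes were nearly absent, with 1 of 6 detected and no read of Acan, Matn1 or Col9a1, the matrix genes of the airway rings. All 6 mesothelial genes, which mark the pleura, were detected, led by Msln, mesothelin, at 29.6 and 32.3 RPKM.

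Immune lists had medians between 0.586 RPKM for mast cells and basophils and 29.1 RPKM for neutrophils. Chil3, a chitinase-like protein of alveolar macrophages, was at 418.8 and 368.1 RPKM, and Marco, their scavenger receptor, at 14.9 and 9.71 RPKM. The eosinophil-associated ribonucleases Ear2 (87.2 and 79.9 RPKM) and Ear1 (28.8 and 27.5 RPKM) belong to a family of close copies, so their split is uncertain. C1qa, a chain of the complement initiator made by interstitial macrophages, was at 55.7 and 51.1 RPKM. The neutrophil alarmins were at 265.3 and 359.2 RPKM for S100a9 and at 122.1 and 177.3 RPKM for S100a8, and their ranges did not overlap. Ly6g, the antigen used to define neutrophils, was at 0.791 and 0.729 RPKM and was not detected by the rule used here.

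Lymphocytes were present at low levels, B cell genes above T and NK cell genes. The list median was 10.5 and 10.3 RPKM for B cells, 2.95 and 2.59 RPKM for T cells and 3.10 and 2.19 RPKM for NK cells, so the T and NK lists overlapped. Cd79a, a signalling chain of the B cell receptor, was at 40.9 and 37.3 RPKM, Trac, the constant segment of the T cell receptor alpha chain, at 8.46 and 8.30 RPKM, and Gzma, a granule protease, at 20.7 and 14.8 RPKM. Of 7 mast cell and basophil genes 2 were detected, Mcpt8 and Ms4a2, and none of the mast cell proteases Cma1, Cpa3, Mcpt4 and Tpsb2 was.

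Genes of blood cells took few reads. Hbb-bs, a beta globin, was at 268.7 and 296.0 RPKM, and Hba-a1, an alpha globin, at 108.2 and 113.4 RPKM. The whole globin family of 13 genes held 0.0456% of gene counts, including Cygb, cytoglobin (mean 55.87 CPM), and Mb, myoglobin (mean 28.07 CPM). Alpha and beta globin genes exist as near-identical copies, so their counts are lower bounds and their split is uncertain. Among platelet genes, Ppbp, a chemokine stored in platelets, was at 6.38 and 18.1 RPKM and Pf4, platelet factor 4, at 7.13 and 12.3 RPKM, so their levels are known less closely than those of the tissue genes.

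Markers of other organs separated into those absent and those present. Of 9 heart muscle genes 8 were detected, with Actc1, cardiac actin, at 68.2 and 74.4 RPKM, Myl7, the atrial myosin light chain, at 69.0 and 64.5 RPKM, and Myh6, the fast cardiac myosin, at 48.4 and 43.2 RPKM. In mice a sleeve of heart muscle follows the pulmonary veins into the lung, and whether these reads came from it or from attached heart tissue was not tested. Nppa, the atrial natriuretic peptide, was at 0.551 and 0.675 RPKM and was not detected. Of 6 skeletal muscle genes 3 were detected, none above 3.77 RPKM in either library, and Myh4 had no read. Among 6 liver, 5 thymus and 5 brain genes, 1, 0 and 1 were detected, and Serpina1a, Cyp2c29, Ptcra, Foxn1, Psmb11 and Nefl had no read. Of 6 adipose genes 2 were detected, Cidea and Plin1, while Adipoq, adiponectin, at 1.10 and 0.572 RPKM, was not.

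In many gene families a few members held most of the sum of RPKM. Over 76 families with 3563 annotated autosomal members, 1441 (40.4%) were detected, against 64.9% of all autosomal protein-coding genes. The lower share was set largely by the receptors of smell and does not describe the other families. Of 1083 olfactory receptors 3 were detected, of 293 vomeronasal receptors 0 and of 38 taste receptors 1, Tas1r3, at 0.402 and 0.444 RPKM. At the other end, 78 of 82 cytosolic ribosomal proteins, 77 of 78 mitochondrial ribosomal proteins and 37 of 39 proteasome subunits were detected. The autosomal ribosomal proteins of the cytosol together held 1.73% of gene counts, beside 2.07% for the 4 surfactant proteins. These are shares of reads, in which longer transcripts weigh more, and reads that map to several places were not counted. In the ribosomal and proteasome families no member dominated: Rplp1 held 7.43% of the cytosolic ribosomal sum, Mrps21 4.28% of the mitochondrial one and Psma6 6.13% of the proteasome sum.

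**Figure D4:**
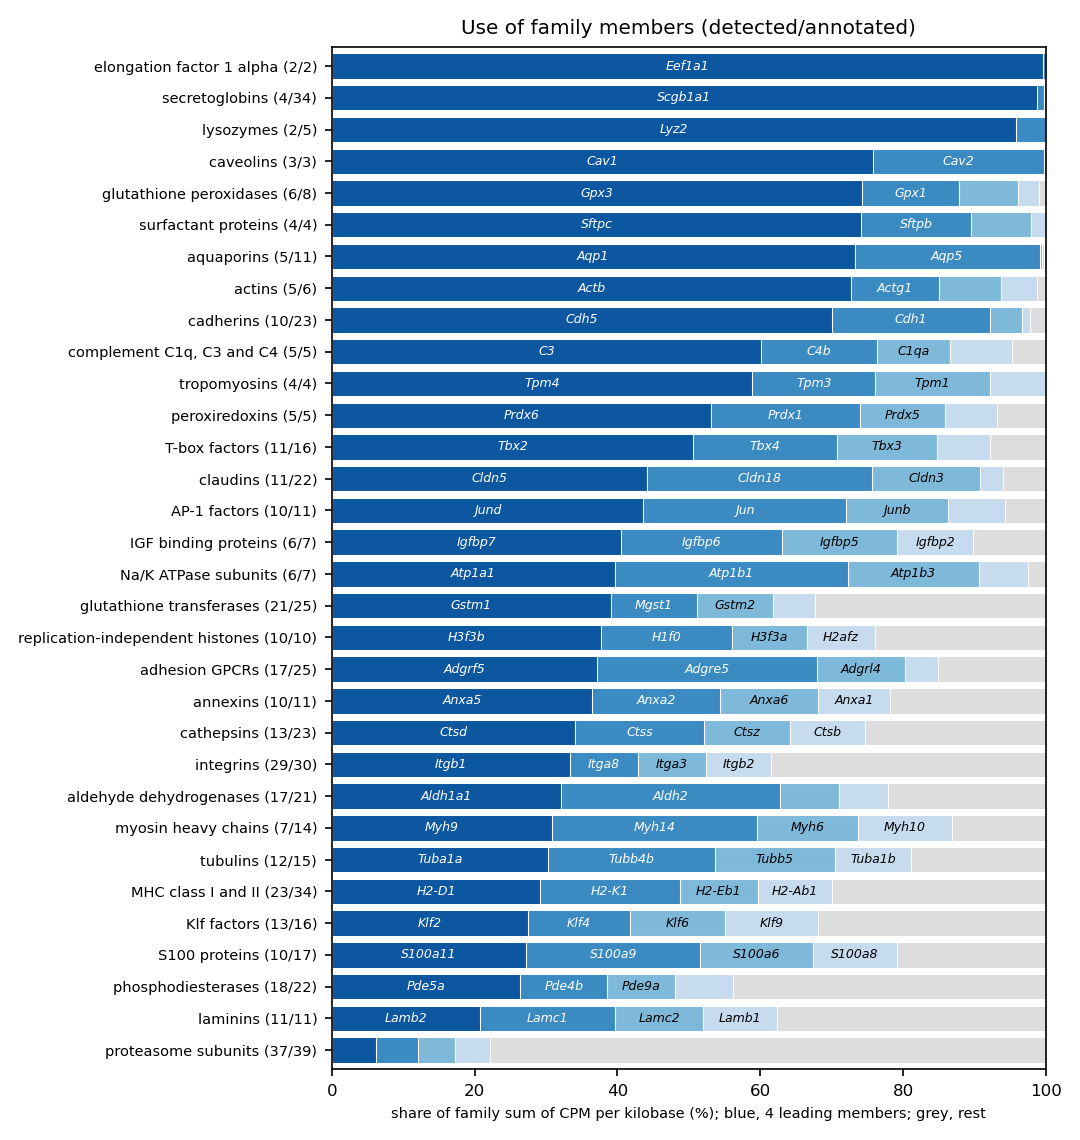
Share of the family sum of mean CPM per kilobase (%) held by the 4 leading members (shades of blue, named where a segment is 9% or more) and by the rest (grey), for the 32 families of 2 to 40 members with the most reads. Bars run from families with 1 dominant member, such as Eef1a1 at 99.6%, to the proteasome, whose leader Psma6 holds 6.13%.

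Barrier genes were of endothelial and epithelial kinds. Of 22 claudins 11 were detected, with the endothelial Cldn5 holding 44.1% of the family sum, the alveolar Cldn18 31.6% (155.7 and 176.8 RPKM) and Cldn3 15% (78.2 and 79.0 RPKM). Among 23 cadherins Cdh5 held 70.0% and Cdh1, the epithelial form, 22.1%, at 276.6 and 284.7 RPKM against 87.8 and 89.6 RPKM. Of 18 connexins 8 were detected, led by Gja4 of arterial endothelium at 51.5%. Keratins came from simple epithelium: Krt19 held 31.2%, Krt8 22.3%, Krt18 22.0% and Krt7 12.7% of the sum over 49 genes, of which 9 were detected. Of 11 aquaporins 5 were detected, with Aqp1 of capillaries at 73.2% (308.3 and 341.9 RPKM) and Aqp5 of type 1 cells at 25.9% (111.8 and 118.4 RPKM). Cav1, which builds caveolae, held 75.8% of the caveolin sum, at 381.9 and 376.7 RPKM.

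Matrix families differed in the share of members detected. Of 42 collagens 29 (69.0%) were detected, near the 64.9% of all autosomal protein-coding genes. The basement membrane chains Col4a1 (19.7%, 167.4 and 186.8 RPKM) and Col4a2 (18.3%, 160.1 and 168.0 RPKM) led the collagens, followed by Col6a1 at 11.1%. All 11 laminin genes and 29 of 30 integrins were detected, with Lamb2 at 20.7% and Lamc1 at 19% of the laminin sum and Itgb1, the common beta chain, at 33.3% of the integrin sum. The cytoskeleton was led by non-muscle forms: Actb held 72.7% of the actin sum, Tpm4 58.9% of the tropomyosin sum, and Myh9 (30.8%) and Myh14 (28.8%) led the myosin heavy chains, ahead of the cardiac Myh6 at 14.1%.

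Several enzyme families had 1 member in the lead. Cyp2f2 held 61.7% of the sum over 99 cytochromes P450, of which 28 were detected, and Cyp4b1, which acts on fatty acids and toxicants, held 16.1% (274.3 and 263.6 RPKM). Ces1d held 89.1% of the carboxylesterase sum and Car4 52.9% of the carbonic anhydrase sum. In defence against oxidants, Gpx3 held 74.3% of glutathione peroxidases, Prdx6, which also degrades surfactant lipid, 53.1% of peroxiredoxins, and Sod3, the extracellular dismutase, 63.7% of superoxide dismutases, at 110.1 and 130.8 RPKM against 60.5 and 60.0 RPKM of the cytosolic Sod1. Aldh1a1 (32.1%) and Aldh2 (30.7%) were level among aldehyde dehydrogenases, and their ranges overlapped. Of the lactate dehydrogenases, Ldhb was at 68.0 and 67.6 RPKM and Ldha at 57.3 and 58.3 RPKM, an order that turned around when the longest transcript was taken as gene length. Aldoa held 98.3% of the aldolase sum and Hk1 52.4% of the hexokinase sum.

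Transcription factors named in a list of 87 regulators, of which 86 are autosomal, were nearly all detected (84 of 86), with a median of 21.2 RPKM. Epas1 was the highest at 782.3 and 747.9 RPKM, the 7th most read autosomal gene by CPM. Hopx followed, and then Jund (200.5 ± 8.16 RPKM) and Jun (130.3 ± 8.95 RPKM), which form the factor AP-1. Klf2, induced in endothelium by flow, was at 123.3 and 100.7 RPKM, Tbx2 at 104.6 ± 0.121 RPKM, Foxf1, a regulator of lung mesenchyme and capillaries, at 107.1 and 100.2 RPKM, and Cebpb, a basic leucine zipper factor, at 103.2 ± 1.59 RPKM. Among Klf2, Tbx2, Foxf1 and Cebpb each neighbouring pair overlapped, so this order is not firm, although the range of Tbx2 lay above that of Cebpb. Counted without strand, Jund was at 107.6 and Cebpb at 62.9 RPKM, so the levels of both depend on strand.

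Sox18 of endothelium was at 78.9 ± 5.85 RPKM, and Nkx2-1, the regulator that defines lung epithelium, at 66.4 and 68.5 RPKM. Cebpa, which matures type 2 cells, was at 67.1 and 64.5 RPKM, overlapping Nkx2-1. Junb, Klf4, Id3, Klf6, Klf9 and Hes1 were between 50.1 and 65.6 RPKM on average, and Ets2, Nfe2l2 and Etv5 between 49.4 and 49.9 RPKM. The members not detected were Sox9, which marks the tips of the branching embryonic lung, at 0.227 and 0.249 RPKM, and Twist1, a mesenchymal factor, at 0.0366 and 0.0211 RPKM.

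Factor families differed in the share of members detected, which was 64.9% over all autosomal protein-coding genes. Of 14 Nkx genes 1 was detected, Nkx2-1, with 98.8% of the family sum. Detected elsewhere were 11 of 16 T-box, 24 of 41 Fox, 10 of 18 Sox and 5 of 5 Gata genes, and 38 of 50 nuclear receptors. Tbx2 held 50.6% of the T-box sum, Tbx4, the T-box gene of lung mesenchyme, 20.1% and Tbx3 14.1%, while Foxf1 held 29.9% of the Fox sum over 41 genes and Foxj1 11.4%. Sox18 held 45.3% of the Sox sum and Gata2 60.3% of the Gata sum. Nr1d1, the clock component REV-ERB alpha, held 21.4% of the nuclear receptor sum, at 97.1 and 106.0 RPKM, a gene whose level depends on the hour of sampling, which was not given.

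Hox genes, which specify position along the body axis, followed their paralog groups (the plot of Hox genes). Of 39 genes 13 were detected. The 15 genes of groups 1 to 5 held 81.1% of the family sum of RPKM with 9 detected, the 8 genes of groups 6 to 8 held 18.7% with 4 detected, and the 16 genes of groups 9 to 13 held 0.223% with 0 detected. Hoxa5, which is needed for the lung and trachea to form, led at 25.6 and 29.1 RPKM, 37.4% of the sum, ahead of Hoxa7 at 7.78 and 8.19 RPKM and Hoxb4 at 7.19 and 8.24 RPKM. All 13 detected genes were in the Hoxa (7) and Hoxb (6) clusters. In the Hoxc and Hoxd clusters, 0 of 18 genes were detected.

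**Figure D5:**
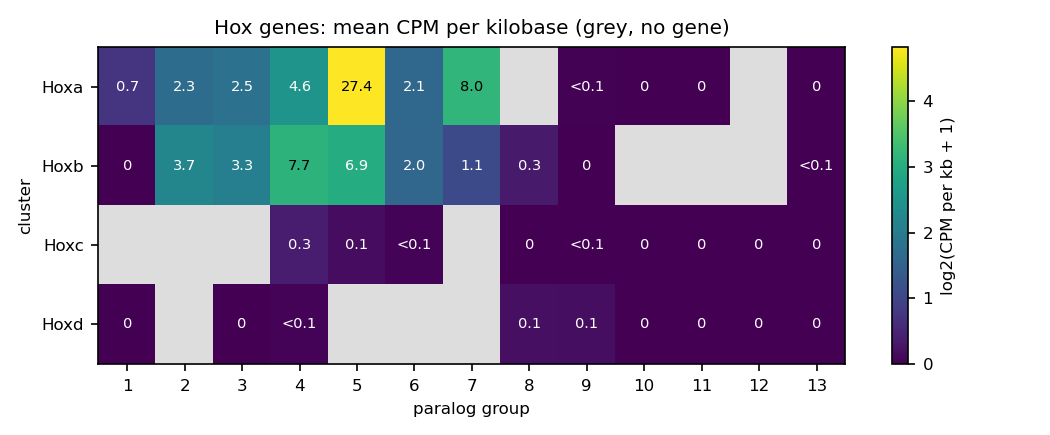
Mean CPM per kilobase of exon of 39 Hox genes (numbers; colour on a log2 scale after adding 1), with clusters in rows and paralog groups 1 to 13 in columns, grey where the mouse has no gene. The 13 detected genes lie in groups 1 to 7 of Hoxa and groups 2 to 7 of Hoxb, with Hoxa5 highest at 27.4.

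Receptors and signalling proteins on which hormones and drugs act ranged from below to well above 6.37 RPKM, the median over detected protein-coding genes. Adrb1, the beta-1 adrenergic receptor, was at 17.9 and 18.3 RPKM. Chrm2 held 82.4% of the muscarinic sum at 4.58 and 4.15 RPKM, and Adora2b 58% of the adenosine receptor sum at 6.14 and 5.86 RPKM. Ramp2, the partner that makes Calcrl an adrenomedullin receptor, held 90.2% of its family, at 86.1 and 86.1 RPKM. Pde5a, the phosphodiesterase of cyclic GMP, was at 34.4 and 35.7 RPKM and led its family at 26.4%. Adgrf5 (37.2%) and Adgre5 (30.7%) led the adhesion receptors. All 9 Toll-like receptors were detected, led by Tlr2 at 11.3 and 10.7 RPKM.

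Among growth factors, Bmp6 (47.3 and 48.2 RPKM) and Bmp4 (30.9 and 30.1 RPKM) led the Bmp ligands, Fgf1 held 56.5% of the Fgf sum at 48.3 and 49.0 RPKM, and Wnt2 led 19 Wnt ligands at 9.60 and 9.06 RPKM, 20.2% of the sum. Igfbp7 was at 376.4 and 376.5 RPKM, 40.5% of the sum over IGF binding proteins. In antigen presentation, H2-D1 (539.4 and 497.6 RPKM) and H2-K1 (368.8 and 324.5 RPKM) led, followed by the class II chains H2-Eb1 (195.4 ± 1.12 RPKM) and H2-Ab1 (183.6 ± 9.59 RPKM). C3 held 60.1% of the complement sum of C1q, C3 and C4. Of 65 replication-dependent histones, whose mRNAs mostly lack poly(A) tails, 6 were detected, led by Hist1h1c at 40.1%, while all 10 replication-independent histones were, led by H3f3b at 133.8 and 142.6 RPKM.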

How the data were processed

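RNA of 2 normoxic lung pools was measured by sequencing, and the 2 Sugen-hypoxic libraries were not used. The authors deposited raw counts of reads for every gene and strand, made with STAR 2.5.1b and HTSeq on GRCm38.p4, per the submitters' processing notes. Which annotation and which stranded kit were used is not given in the sources. The column of antisense reads summed to 21.4 and 20.9 times the sense column in replicates 1 and 2, so column 4 was used. Of all reads, 6.82% and 6.45% were unmapped, 4.51% and 4.50% mapped to several places, 9.29% and 9.98% met no feature and 1.11% and 1.12% were ambiguous, and none of these entered a total. Genes with near-identical copies are therefore undercounted.

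CPM and RPKM were computed from gene totals of 67.1 and 58.2 M counts with pandas 2.3.3. Symbols, gene types, exon lengths and coordinates came from GENCODE mouse release 21 (GRCm38), which matched 47310 of 47729 identifiers. Where autosomal identifiers shared a symbol (59 symbols), the one with the most reads was taken. The code was tested on simulated data with known shares. Nothing was tested for significance, since there is 1 condition. The labels do not say whether the pools came from separate experiments. The libraries are not copies of each other, since 881 of 25721 genes with reads had equal counts in both.

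The members, the 40 marker lists, 76 families and 87 transcription factors were chosen with earlier results of these data known. Named are the 4 markers, the 25 highest autosomal genes by CPM, the 25 highest protein-coding genes by RPKM, the 10 highest non-coding genes by CPM, up to 4 leading members of each list and its members under 0.1 CPM, leaders of families with members holding 10% or more, and the 20 highest transcription factors. Other list and family members in the text, and the genes whose promoter windows are shown, were chosen after their values were seen. Alternatives were unstranded counts, TMM factors (edgeR 4.0.16, R 4.3.3), another denominator, other detection limits, the longest transcript as gene length, and leaving out each library.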

Additional observations from a re-analysis of the deposited data

Results flagged for a closer look

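The strand column that was not used also held reads. In both libraries 1571 autosomal genes had more reads there than in the column used, at 1 CPM or more, of which 378 were protein-coding. For 1517 of them (96.6%) a detected gene lay on the opposite strand over the same span. The protein-coding genes with the most such reads, as a mean over the libraries, were Gm20721 at 824.0 CPM opposite Gnas, Syn3 at 576.7 CPM opposite Timp3, Myo1h at 238.7 CPM opposite Kctd10, Ddx39 at 234.3 CPM opposite Adgre5 and Ctsa at 205.4 CPM opposite Pltp. In the column used, Syn3, a synapsin of neurons, was at 5.09 and 4.86 CPM and Timp3, a metalloproteinase inhibitor, at 1400 CPM. CT010467.1, the ribosomal RNA gene over Gm42418, was at 3678 and 2317 CPM in the unused column and at 40.8 and 32.6 CPM in the column used.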

How the results depend on the processing

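Of the counts, only that of detected genes moved by over 1.5 times, to 24607 when 1 read in either library sufficed. It was 18317 at 0.1 CPM and 11642 at 5 CPM. Without 1 library it was 14412 to 14456, and the genes holding 50% of counts numbered 1147 to 1167. With a total over autosomal genes other than haemoglobin and immunoglobulin genes, the protein-coding share was 98.3%, and the marker sums were 3.59% for airspace, 2.05% for airway, 1.39% for vessel, 0.695% for mesenchyme and 0.283% for immune lists. Unstranded counts gave 0.836% long non-coding, 2.16% mitochondrial, 1.35% vessel and 0.280% immune reads, with Gm42418 at 0. Without the highest member the sums were 2.24% for airspace, 0.566% for airway, 1.17% for vessel, 0.469% for mesenchyme, 0.205% for immune and 0.0245% for blood lists. The order of compartments was the same under unstranded counts, TMM factors, the other denominator and without either library, while without the highest member vessels came before airways. The family leader was the same in 73 of 76 families with unstranded counts and in 70 with the longest transcript as length, under which Pecam1 was at 242.8 and Mgp at 1229 RPKM. Of 62 named genes compared, 6 rose by over 1.5-fold with that length: Fth1, Mgp, Nfe2l2, Pecam1, Sptbn1 and Tns1. Without 1 library, 74 or 75 leaders were the same. No paired analysis was possible because the data hold 1 condition and no test was run. Depth did not limit genes above 1 CPM, but rare cell types rest on few reads.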
